A study of Gallus gallus with 18 samples.

Results

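Cells make cholesterol from acetyl units in a long chain of enzyme reactions, and the sterol arm is the stretch from squalene onwards, which leads to sterols. The 9 chicken genes described here encode enzymes of that stretch: FDFT1, SQLE, LSS, CYP51A1, MSMO1, NSDHL, HSD17B7, SC5D and DHCR7. They were chosen by their names in the deposited gene table, by a rule that used no measured value, though earlier results of these data were known. Each name belonged to 1 of the 23741 genes listed. Expression was read as polyA RNA-seq in 18 libraries, 3 for each of 6 groups of Arbor Acres birds, a broiler breeder strain. Roosters received a diet with 0.25 mg of folic acid per kg (FCON) or with 5 mg per kg (FE), and their livers and sperm were taken at 35 weeks of age, except FE sperm replicate 3, labelled 36 weeks. The offspring groups carry their fathers' diet names, since the hens had ordinary feed, and each offspring library pools 4 livers of day-old chicks. The libraries are separate birds or pools only as far as the labels say, so each p-value measures the spread between these few libraries.

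Squalene synthase, the product of FDFT1, joins a pair of farnesyl diphosphate molecules and so commits them to sterols. Squalene is then given an oxygen by SQLE and folded by LSS into lanosterol, the earliest sterol, from which CYP51A1, MSMO1, NSDHL and HSD17B7 strip methyl groups before SC5D and DHCR7 adjust the double bonds of the ring. The liver is a main site of this synthesis. In mammals the genes of the pathway are switched on together by the transcription factor encoded by SREBF2, which SCAP carries out of the endoplasmic reticulum when sterols are scarce and INSIG proteins hold back when sterols are plentiful. Male germ cells of mammals also express several of the enzymes, and intermediates of the pathway build up in their testis.

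Each library held between 16979085 and 43130067 estimated counts. All 12 liver libraries held hepatocyte transcripts, with 15 marker genes summing to between 28920 and 90800 CPM (counts-per-million values, scaled by the TMM method over the 18 libraries), against 620 to 1801 CPM in sperm. The 3 libraries labelled rooster FCON stood apart. They held 1015 to 1117 CPM (unscaled) from genes on W, the chromosome that only hens carry, while those labelled rooster FE held 0 to 2.07, so the label of one rooster group goes against its counts. The yolk genes VTG1, VTG2, VTG3 and APOV1, which oestrogen switches on in the liver of laying hens, summed to at most 0.787 CPM in those FCON libraries. Among the offspring, unscaled CPM of W genes was 962.5 in FCON pool 2 (95% interval by Wilson 949.5 to 975.7), 1299 in FE pool 2 (1288 to 1310.0) and at most 9.34 in the 4 other pools. Nuclear rRNA took 3.02 to 8.75% of counts in rooster FCON and 32.8 to 60.5% in rooster FE. The hepatocyte marker sum was 89660 to 90800 CPM in rooster FCON and 42960 to 66600 CPM in rooster FE, and 10 of 14 tested hepatocyte markers fell while 2 rose. Over all genes tested in rooster liver 21.1% fell and 20.4% rose, at an adjusted p below 0.05 by edgeR. Of tested macrophage markers 6 of 8 rose, as did 6 of 6 T and NK cell markers, whose sum went from between 102.0 and 106 CPM to between 339 and 446 CPM. The part of these differences in the results below was not tested, and in tissue RNA fewer cells of a type cannot be told apart from less RNA per cell. Sex and diet cannot be told apart for the libraries labelled rooster FCON and rooster FE.

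**Figure D1:**
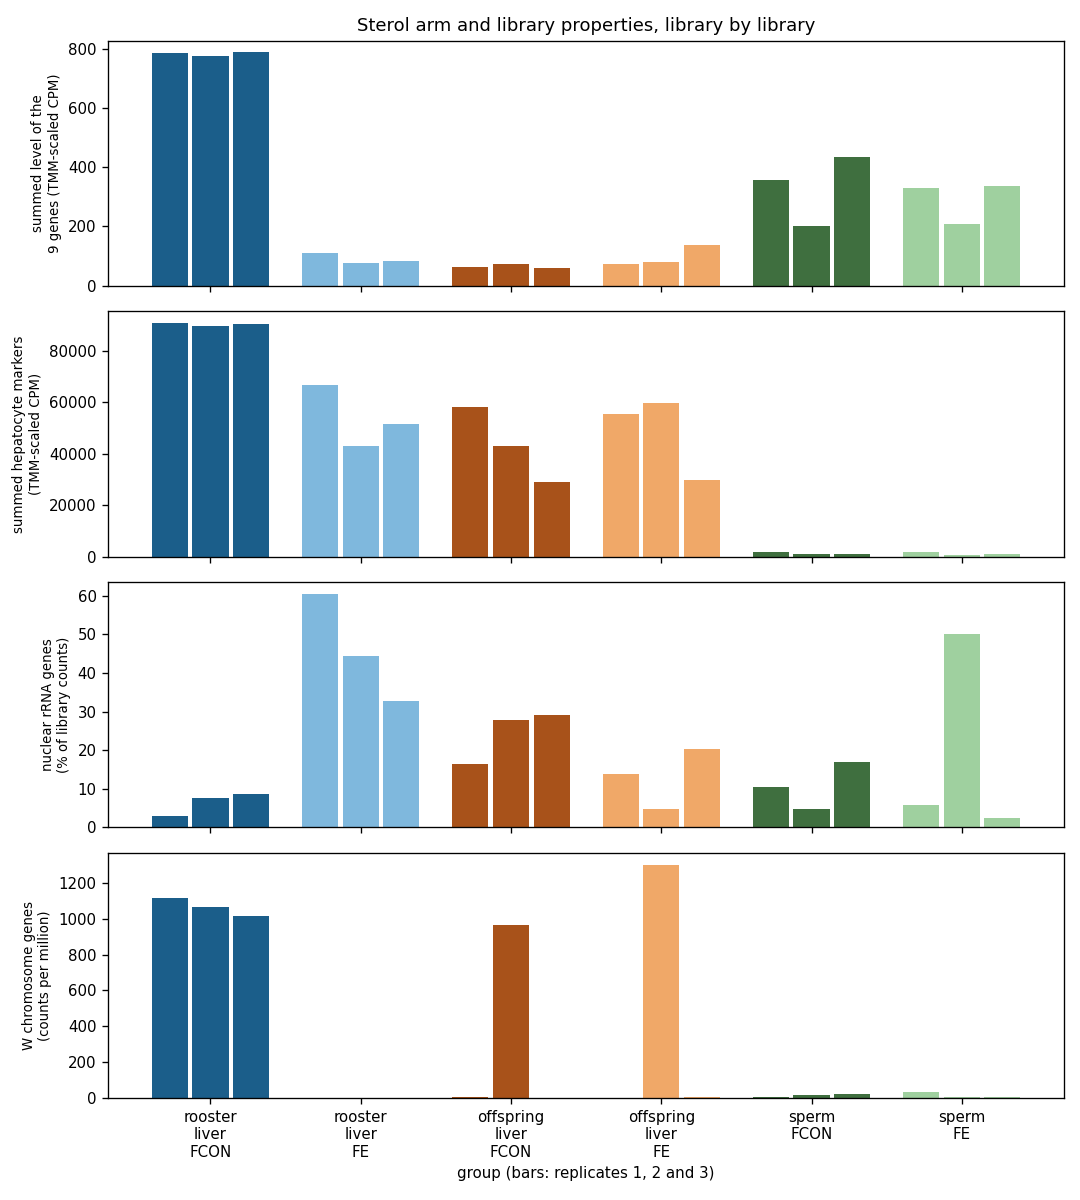
Bars give, for each of the 18 libraries on the horizontal axis, the summed CPM of the 9 sterol genes, the summed CPM of the hepatocyte markers, the percent of counts on nuclear rRNA and the unscaled CPM of W genes. The 3 libraries labelled rooster FCON carry 776 to 788 CPM of the sterol genes, and offspring pools numbered 2, which also carry W counts, 74.7 and 80.3 CPM. These pools are of day-old chicks, and the part of sex was not tested.

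In rooster liver all 9 genes of the arm were lower in FE than in FCON. The 9 together summed to 786, 776 and 788 CPM in the libraries labelled rooster FCON and to 112, 75.2 and 84.2 CPM in rooster FE. By edgeR's quasi-likelihood test, with adjustment over all 10291 genes tested, 9 of 9 fell at an adjusted p below 0.05, the threshold for every call here, against 21.1% of all tested genes. SQLE and DHCR7 reached the filter for testing (FPKM of 1 or more in 3 or more libraries) only through the FCON libraries and so had to come out lower; of the 7 other genes 7 fell, with a median of -3.53. Of the calls over all genes 49.2% were higher in FE, a share that was 4.91% on FPKM and 87.3% after scaling to hepatocyte markers, so the balance of all calls follows the scaling. The median log2 fold change of the 9 was -3.81, and that of all tested genes was -0.03. The libraries of both diets did not overlap for 9 of 9 genes, which was also so for 58.4% of all genes tested. The falls ranged from 3.53-fold for SC5D to 79.5-fold for SQLE, and all 9 stood among the 513 lowest fold changes of the 10291. When the libraries were scaled to the hepatocyte markers instead, the 9 were still all called, with log2 values from -5.61 (SQLE) to -1.19 (SC5D) and a median of -3.09, while the median of all genes moved to 0.68. Of the 10291 genes, 639 were called lower and 4398 higher with that scaling. The scaling divides by the plain sum of the markers, in which a few abundant genes weigh most. In group means ALB went from 46130 CPM in FCON to 9767 in FE, and HPX from 6722 to 24910. Scaling to other sets of markers was not tested. With rRNA, mitochondrial, W and Z genes left out, the median of the 9 was -3.77 and 9 were called. Offspring pools numbered 2, with W counts, had summed levels of 74.7 and 80.3 CPM, and the 4 other pools 60.1 to 138 CPM. Those are day-old chicks, and the part of sex in adult liver was not tested. Of the rooster FE libraries, replicate 1 had the largest rRNA share, 60.48% (Wilson 95% interval 60.46 to 60.5), and also the highest sum of the 9 genes. Of that sum of 112 CPM, SC5D alone held 58.9 CPM. Replicate 1 was the highest of its group for 5 of the 9 genes and the lowest for 3, and the part of rRNA in these levels was not tested.

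**Figure D2:**
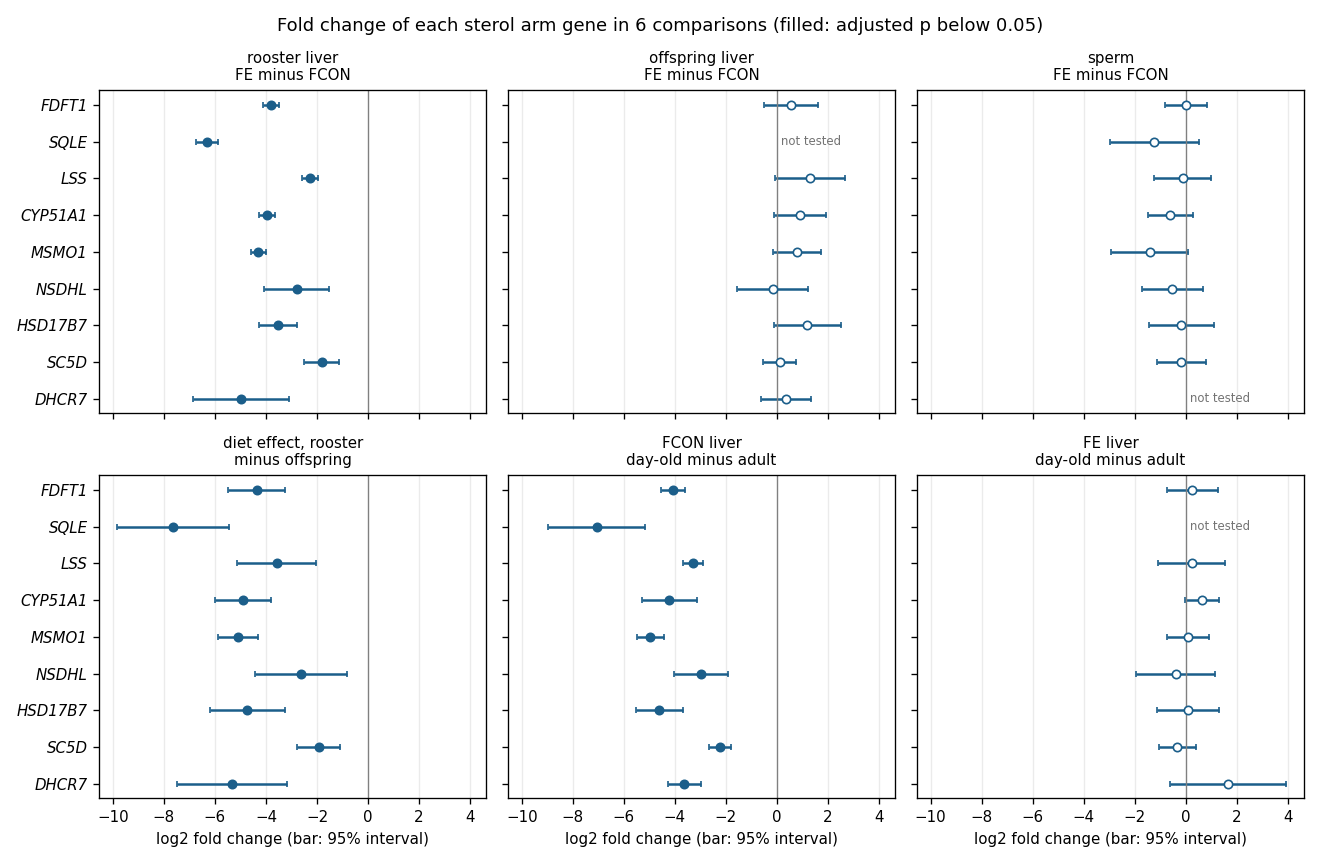
Each panel is 1 comparison and each row 1 of the 9 genes; points are log2 fold changes, lines their 95% intervals, and filled points have an adjusted p below 0.05 by edgeR. All 9 points are filled and negative in rooster liver (-6.31 to -1.82), in the difference of diet effects and in FCON liver by age, and none is filled in offspring liver, sperm or FE liver by age.

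The first enzyme, FDFT1 (gene 422038, chromosome 3, 107359160 to 107370240, plus strand of the deposited table, whose genome build is not given in the sources used here), was alike in the 3 libraries labelled rooster FCON. Its levels in rooster FCON were 137, 138 and 133 CPM, and in rooster FE 8.31, 8.50 and 10.7 CPM. These are means of 136 ± 2.80 and 9.17 ± 1.33 CPM (SD, n = 3), and FDFT1 fell 13.99-fold (log2 -3.81, SE 0.13, adjusted p = 9.04e-06 by edgeR). The 3 libraries of each diet lay close together and far from those of the other diet. Offspring livers read 8.53, 8.35 and 6.32 CPM in FCON and 5.82, 9.11 and 18.9 CPM in FE, close to the rooster FE level, with 1 FE pool above the rest. Sperm read 117, 76.8 and 137 CPM in FCON and 129.9, 107 and 114 CPM in FE, nearer to the rooster FCON liver than to any other liver group and with both diets overlapping.

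SQLE, the squalene epoxidase, adds the oxygen and is a rate-limiting enzyme of the pathway in mammals. The gene (420335) lies on chromosome 2 at 138683095 to 138697225, plus strand. Rooster FCON livers read 38.7, 37.5 and 35.3 CPM. Rooster FE livers read 0.543, 0.410 and 0.388 CPM, which rests on 7, 8 and 7 counts. No other gene of the arm had so large a fall (79.5-fold, log2 -6.31, SE 0.18, adjusted p = 7.23e-06 by edgeR). SQLE passed the filter only through the rooster FCON libraries, so its direction was set in advance. In the offspring SQLE was near the limit of detection, at 0.567, 0 and 0.1505 CPM in FCON and 0.276, 0.776 and 0.940 CPM in FE, too low to enter the test. The 0 belongs to FCON pool 2, where 0 counts allow up to 0.132 CPM (3 counts; counting error only). Sperm held 8.51, 2.78 and 3.64 CPM in FCON and 2.57, 1.18 and 2.98 CPM in FE.

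LSS, the cyclase that forms lanosterol (424037, chromosome 7, 6913221 to 6923292, minus strand), was at 95.3, 94.9 and 94.1 CPM in rooster FCON and at 20.7, 18.9 and 15.7 CPM in rooster FE. It fell 4.85-fold (log2 -2.28, SE 0.13, adjusted p = 4.61e-05 by edgeR), a smaller fold than that of the enzymes on either side of it in the pathway. Among the offspring, 8.86, 10.4 and 8.54 CPM in FCON stood beside 10.5, 9.64 and 47.0 CPM in FE, where FE pool 3 alone was high. In sperm LSS reached 82.6, 38.9 and 104 CPM in FCON and 90.3, 38.9 and 90.9 CPM in FE, and 1 FCON sperm library passed the rooster FCON livers.

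CYP51A1 encodes lanosterol demethylase, a cytochrome P450 that removes a methyl group from lanosterol, and lies at chromosome 2, 22493945 to 22511501, minus strand (420548). Its levels were 133, 131 and 135 CPM in rooster FCON and 7.69, 7.07 and 9.42 CPM in rooster FE, a fall of 15.6-fold (log2 -3.96, SE 0.13, adjusted p = 9.04e-06 by edgeR). Offspring FCON pools held 10.4, 6.86 and 3.05 CPM and offspring FE pools 12.1, 15.9 and 10.6 CPM. The lowest FE pool was just above the highest FCON pool, so the groups did not overlap. In sperm it was 46.2, 29.0 and 48.7 CPM in FCON and 37.6, 20.3 and 28.8 CPM in FE, with overlap.

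The next 3 genes act in turn on the remaining methyl groups. MSMO1, the oxygenase that starts the removal (422423, chromosome 4, 23878894 to 23885145, plus strand), read 115, 109 and 114 CPM in rooster FCON and 4.74, 5.27 and 6.10 CPM in rooster FE. The fall was 19.7-fold (log2 -4.30, SE 0.12, adjusted p = 7.23e-06 by edgeR), and no rooster FE library came near the FCON level. Offspring livers read 2.68, 4.13 and 3.50 CPM in FCON and 6.14, 4.19 and 7.36 CPM in FE. The lowest FE pool barely passed the highest FCON pool, by far less than the spread within either group. Sperm read 28.9, 14.9 and 44.8 CPM in FCON and 7.84, 4.42 and 22.5 CPM in FE, with FE libraries 1 and 2 below all FCON libraries and library 3 among them.

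NSDHL, the dehydrogenase that follows (422302, chromosome 4, 11273074 to 11283628, minus strand), read 24.2, 23.4 and 27.1 CPM in rooster FCON. Rooster FE libraries scattered more, at 6.44, 1.23 and 2.71 CPM. The fall of 6.95-fold (log2 -2.80, SE 0.53, adjusted p = 0.00630 by edgeR) therefore has a wide 95% interval on the log2 scale, -4.07 to -1.53. Offspring livers read 1.25, 4.26 and 3.57 CPM in FCON and 1.31, 3.66 and 3.11 CPM in FE, with the values interleaved. NSDHL was the only one of the 9 with its highest group mean in sperm FCON (32.1, 13.1 and 37.3 CPM), which overlapped rooster FCON liver; sperm FE read 25.1, 10.1 and 25.5 CPM.

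HSD17B7, a ketone reductase that completes each round (424367, chromosome 8, 4187219 to 4193089, minus strand), stood at 51.2, 55.4 and 57.0 CPM in rooster FCON and 2.25, 5.07 and 5.87 CPM in rooster FE. It fell 11.6-fold (log2 -3.53, SE 0.32, adjusted p = 2.73e-04 by edgeR). The offspring values of 3.28, 1.71 and 1.28 CPM in FCON and 3.59, 2.91 and 7.88 CPM in FE overlapped, as did sperm, with 11.7, 5.19 and 21.1 CPM in FCON and 11.2, 8.64 and 15.6 CPM in FE.

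SC5D, the desaturase that sets a double bond in the ring (100857756, chromosome 24, 3559484 to 3564691, minus strand), moved least. It read 149.7, 146 and 149 CPM in rooster FCON and 58.9, 26.9 and 33.3 CPM in rooster FE, a fall of 3.53-fold (log2 -1.82, SE 0.28, adjusted p = 0.00270 by edgeR). Outside the rooster FCON livers its levels ran from 17.1 to 58.9 CPM, with the highest in rooster FE. The other groups read 25.1, 35.5 and 29.6 CPM in offspring FCON, 29.1, 29.7 and 38.4 CPM in offspring FE, 30.4, 17.1 and 34.4 CPM in sperm FCON and 24.3, 18.8 and 33.8 CPM in sperm FE. Each group outside rooster FCON overlapped its neighbours in the order of means, which ran from rooster FE through offspring FE, offspring FCON and sperm FCON to sperm FE.

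DHCR7, the reductase of the last step on one route to cholesterol (422982, chromosome 5, 1895028 to 1903547, plus strand), read 42.1, 40.9 and 42.8 CPM in rooster FCON. In rooster FE it read 2.10, 1.79 and 0 CPM, from 27, 35 and 0 counts, and 0 counts allow up to 0.166 CPM in that library. The fall was 31.3-fold by the fit (log2 -4.97, SE 0.79, adjusted p = 0.00296 by edgeR), with a 95% interval of -6.85 to -3.09 in log2. DHCR7 passed the filter there only through the rooster FCON libraries, so its direction was set in advance. In sperm it was close to the limit of detection, at 0, 2.95 and 2.31 CPM in FCON and 2.32, 0 and 4.23 CPM in FE, below the filter for testing. Offspring livers held 2.18, 3.47 and 4.06 CPM in FCON and 4.44, 4.34 and 3.73 CPM in FE.

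**Figure D3:**
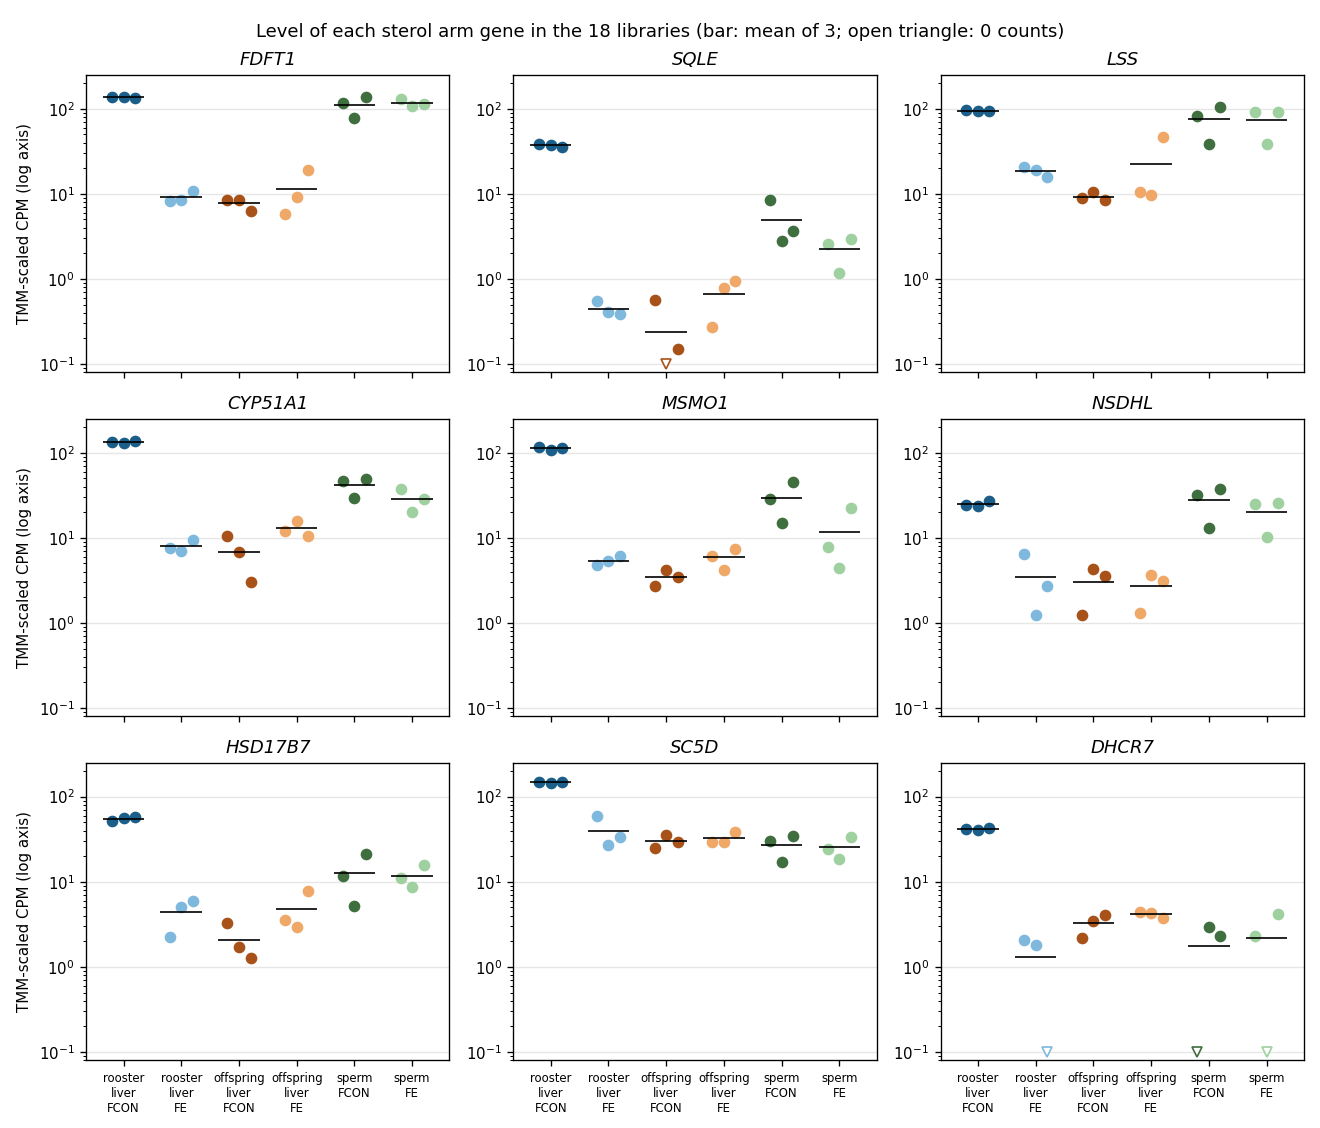
Each panel is 1 gene; dots are the 3 libraries of each of the 6 groups, bars their mean, in TMM-scaled CPM on a log axis, with libraries at 0 counts drawn as open triangles at 0.1. The 3 rooster FCON dots lie above all rooster FE and offspring dots in all 9 panels, and sperm comes nearest to them in FDFT1, LSS and NSDHL.

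Across the 6 groups, rooster FCON liver had the highest mean for 8 of the 9 genes, with NSDHL the exception. It overlapped the group next below it in mean for LSS alone of those 8. For FDFT1 it also overlapped sperm FCON, further down in mean, whose highest library reached 137 CPM against 133 CPM for the lowest of rooster FCON. Both sperm groups came next for FDFT1, SQLE, LSS, CYP51A1, MSMO1 and HSD17B7, and the 2 sperm groups overlapped each other for all 9. The lowest 3 places for these 6 genes were held by offspring FE, rooster FE and offspring FCON liver, in that order of means. In that trio offspring FE and rooster FE overlapped except for CYP51A1, and rooster FE and offspring FCON overlapped except for LSS and MSMO1. The spread within a group was very unequal. The median coefficient of variation over the 9 genes was 2.27% in rooster FCON, 18.9% in rooster FE, 29.8% in offspring FCON, 45.6% in offspring FE, 46.4% in sperm FCON and 40.7% in sperm FE.

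Levels of different genes can be compared only per length, for which the deposited FPKM values were used as shares of the summed FPKM of the 9 in each library. These shares are descriptions without a test. In rooster FCON liver SC5D (23.8%), MSMO1 (20.5%) and FDFT1 (16.6%) led, and DHCR7 (3.00%) was lowest. In rooster FE the arm was unevenly low: SC5D took 50.3% (43.6 to 60.5 over the 3 libraries) and LSS 15.8% (13.6 to 19.6), while MSMO1 came to 8.24% and SQLE to 0.437%, from 4.62% in FCON. Offspring liver had the same gene in front, with SC5D at 54.1% in FCON and 43.8% in FE, and SQLE last at 0.358 and 0.642%. Sperm was made up differently. FDFT1 led there with 33.8% in FCON and 41.5% in FE, LSS followed with 18.3 and 20.4%, NSDHL held 11.4 and 9.59%, and DHCR7 was last with 0.386 and 0.378%.

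**Figure D4:**
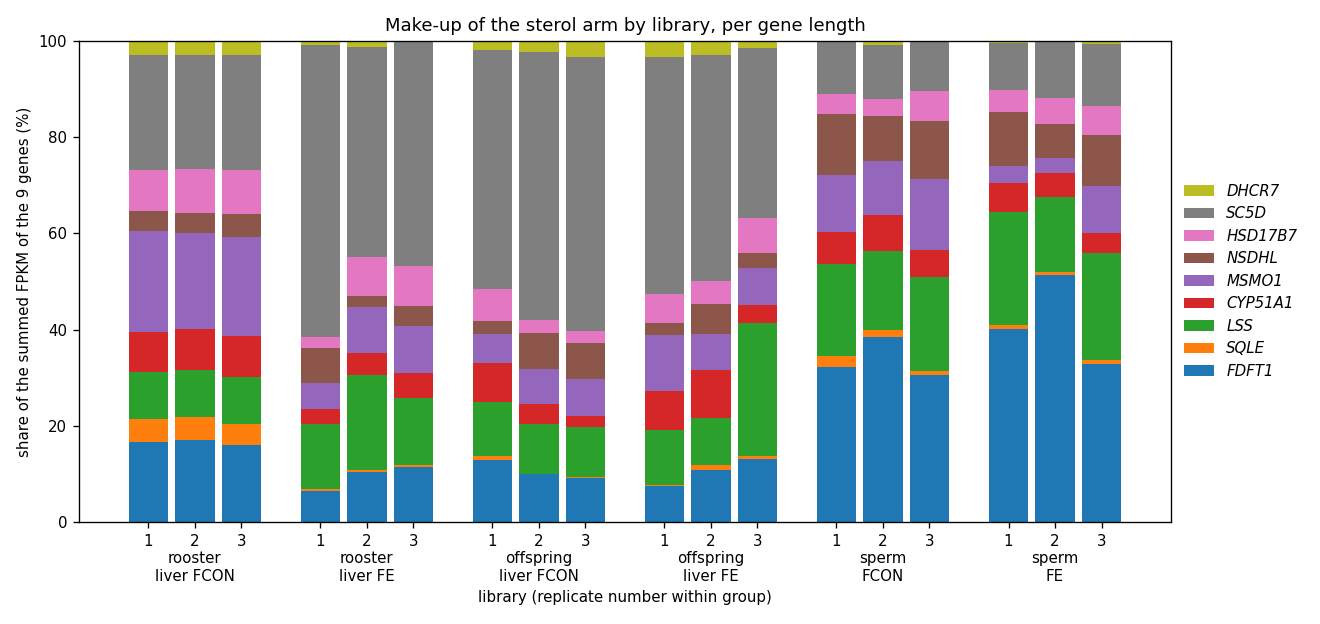
Each stacked bar is 1 library and splits the summed FPKM of the 9 genes into the percent held by each gene. SC5D takes 43.6 to 60.5% in rooster FE against a mean of 23.8% in rooster FCON, and FDFT1 is the largest part of the sperm bars.

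Offspring liver addresses whether the fathers' diet leaves a mark on the next generation. There the sterol arm gave no call. By edgeR 0 of 8 tested members (SQLE was too low) and 0 of 9700 genes (0.0%) passed, with 679 genes and 0 members at an unadjusted p below 0.05; DESeq2 called 38 genes, limma on log2(FPKM + 1) 0, and neither called a member. Of the 8 log2 fold changes 7 were positive and the median was 0.67, against -0.01 for all tested genes, but without FE pool 3 the median was 0.088. DHCR7 reached the filter only through the FE pools. The highest were LSS at 1.30 (95% interval -0.08 to 2.68, unadjusted p = 0.0622, adjusted p = 0.701 by edgeR), and HSD17B7 at 1.20 (-0.13 to 2.52). Without FE pool 3 the value of LSS was 0.088 and that of HSD17B7 0.59. With all pools CYP51A1 was at 0.91 (-0.11 to 1.94) and MSMO1 at 0.78 (-0.16 to 1.72). These 2 were the genes of the arm whose pools did not overlap between diets, 2 of 8 against 13.9% of all tested genes. FDFT1 (0.56, -0.50 to 1.61), DHCR7 (0.36, -0.60 to 1.32), SC5D (0.11, -0.54 to 0.76) and NSDHL (-0.16, -1.55 to 1.23) completed the set. The intervals of LSS, CYP51A1, MSMO1 and HSD17B7 reach 1.72 to 2.68 at their upper ends and so do not exclude rises of that size. FE pool 3 was the highest of its group for 6 of the 9 genes.

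Sperm of the roosters themselves also gave no call: 0 of 8 members tested and 0 of 8811 genes (0.0%) by edgeR, with 296 genes and 0 members at an unadjusted p below 0.05, 0 genes by DESeq2 and 1 by limma. Without FCON library 2 edgeR called 182 genes, 0 of them a member. All 8 log2 values lay at or below 0, with a median of -0.35 against -0.09 over all tested genes. Without 1 library that median ran from -0.65 (without FCON 2) to -0.074 (without FCON 3), and it was -0.12 without FE 2 and -0.53 without FE 3. The lowest were MSMO1 at -1.41 (95% interval -2.93 to 0.11, unadjusted p = 0.0644, adjusted p = 0.902 by edgeR) and SQLE at -1.24 (-2.98 to 0.50). FDFT1, the most abundant per length, was at 0.00 (-0.83 to 0.83), and LSS (-0.12), HSD17B7 (-0.17) and SC5D (-0.17) lay close to it. CYP51A1 (-0.61) and NSDHL (-0.53) fell between these and MSMO1 in value. Taken as unpaired groups, no member was free of overlap between the diets, against 10.1% of all tested genes. The labels number the roosters within each diet, so a shared number does not name a shared bird. Within same-numbered sperm libraries FE was the lower in 3 of 3 for SQLE, CYP51A1, MSMO1 and NSDHL. It was the lower in 2 of 3 for LSS, HSD17B7 and SC5D, and in 1 of 3 for FDFT1 and DHCR7. The share of all tested genes that were lower in 3 of 3 was not counted, so these counts are a description only. With the number as a block SQLE, CYP51A1, MSMO1 and NSDHL were still not called, with MSMO1 at -1.62 and adjusted p from 0.540 to 0.595 by edgeR. Library 2 was the lowest of its group for 9 of 9 genes in FE and for 8 of 9 in FCON, so in both diets that library ran low across the arm. FE library 2 had 50.2% of its counts on nuclear rRNA (Wilson 95% interval 50.18 to 50.21) and FCON library 2 had 4.713% (4.706 to 4.72). The sperm libraries also differed in make-up. Spermatid and sperm markers summed to 129, 1196 and 248 CPM in FCON and to 753, 758 and 584 CPM in FE. Over the sperm libraries, T and NK cell markers summed to 63.4 to 461 CPM and the epithelial markers of the cholangiocyte list to 226 to 640 CPM. The part of rRNA and of make-up in the spread was not tested.

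The diet difference in rooster liver was set against that in offspring liver in 1 fit over 12 libraries. All 9 genes had a lower diet effect in roosters, and 9 of 9 were called, against 10.2% of 11002 genes called in that direction. SQLE reached the filter only through the rooster FCON libraries, and of the 8 others 8 were called, with a median of -4.55. That count and median include DHCR7 (-5.32), which had an FPKM of 1 or more only in rooster FCON and offspring FE. High levels in either of these groups lower the difference, so the filter favoured a lower value for DHCR7. The median difference of all 9 was -4.74 in log2, with -0.07 over all tested genes. MSMO1 had the smallest adjusted p (-5.10, SE 0.36, adjusted p = 4.34e-05 by edgeR), followed by CYP51A1 (-4.89, SE 0.50, adjusted p = 2.05e-04). SQLE had the lowest value, -7.65 (SE 1.01, adjusted p = 6.84e-04 by edgeR). Of the rest, NSDHL (-2.63, adjusted p = 0.0447 by edgeR) and SC5D (-1.94, adjusted p = 0.00623) had the largest adjusted p. Scaled to hepatocyte markers, NSDHL was at -1.86 (adjusted p = 0.181) and SC5D at -1.22 (0.179), and both calls ended. Without the offspring pools numbered 2, NSDHL was at -2.68 (0.0834). Its call also ended without any single one of 9 libraries (rooster FCON 1, 2 or 3, rooster FE 2 or 3, offspring FCON 1 or 3, offspring FE 2 or 3), with log2 values from -2.78 to -2.21 and adjusted p from 0.0604 to 0.0963 by edgeR. The other 8 genes had no such loss in the fits in which they were tested.

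Liver by age was compared within each diet label. In FCON, where the adult libraries are those with W counts and are shared with the rooster diet comparison, all 9 genes were lower in day-old chicks. By edgeR 9 of 9 fell, against 13.8% of 10339 genes, the log2 values ran from -7.06 (SQLE) to -2.23 (SC5D), and the adjusted p from 4.36e-04 to 0.00531. Here too SQLE and DHCR7 passed the filter only through rooster FCON, and of the 7 others 7 fell, with a median of -4.06. The groups did not overlap for 9 of 9, which held for 53.5% of all tested genes. In FE, with other adult libraries, no member was called by edgeR among 8 tested, against 27.4% of 9847 genes, and 0 had an unadjusted p below 0.05. Of these, 6 values were positive and 2 negative. NSDHL was lowest, at -0.39 (95% interval -1.94 to 1.16), and CYP51A1 stood at 0.64 (-0.03 to 1.32). DHCR7, at 1.66 (-0.62 to 3.94), passed the filter only through the chick pools and so had to come out higher there. Apart from DHCR7, CYP51A1 was the 1 gene with every chick pool above every adult, a state found in either direction for 47.3% of all tested genes. Limma on log2(FPKM + 1) called CYP51A1 (1.04) and DHCR7 (0.98) higher, while DESeq2 called 0 members. On FPKM limma called 4111 of all 9847 genes higher, with a median over all genes of 0.72.

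The other genes of the cholesterol pathway moved less evenly in rooster liver. Beside each list below stand the shares over all genes tested there, 21.1% lower and 20.4% higher. Of the last steps outside the 9, 2 genes were tested. ERG28, a scaffold for the demethylating enzymes in yeast, fell by 0.66 (0.08 and no call with hepatocyte scaling), and LBR, a reductase of the inner nuclear membrane, was at -1.28 without passing. That is 1 of 2 tested lower and 0 higher, while TM7SF2 and EBP had no match by name.

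The mevalonate steps, which supply farnesyl diphosphate to FDFT1, were divided. Of 8 tested, 4 fell (MVK -1.54, MVD -1.84, IDI1 -2.84 and FDPS -3.81) and 1 rose, with a median of -0.85. FDPS makes the farnesyl diphosphate that FDFT1 uses (adjusted p = 3.25e-05 by edgeR), and IDI1 shapes its building block. HMGCS1, a synthase early in the mevalonate steps, went the other way, from 897, 821 and 803 CPM to 1208, 1853 and 1554 CPM (log2 0.95, adjusted p = 0.00283 by edgeR), among the 20.4% of all tested genes that rose. On FPKM its value was -0.03 and not called, so the rise depends on the scaling. HMGCS1 lies on the Z chromosome, of which hens have a single copy, and none of the 9 sterol genes lies on Z or W. Other lists hold such genes too. With rRNA, mitochondrial, W and Z genes left out, the sensing list below went from 10 to 9 tested genes. The storage list went from 8 to 7. The part of Z copies in any of these values was not tested. ACAT2 (-0.17), PMVK (-0.15) and GGPS1 (0.46) did not pass. With hepatocyte scaling this list counted 4 lower and 3 higher, beside 639 lower and 4398 higher of all 10291 genes tested.

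Among 10 tested genes of sterol sensing and uptake, 7 fell and 2 rose, with a median of -0.96. Over all genes tested in rooster liver 21.1% fell and 20.4% rose, so the 2 rises were near the general share. SCAP, the escort of the SREBF proteins, fell from 146, 152 and 148 CPM to 9.55, 11.1 and 12.2 CPM (log2 -3.68, adjusted p = 8.28e-06 by edgeR). SREBF2 itself read 111, 113 and 125 CPM in FCON and 103, 45.3 and 60.3 CPM in FE and did not pass (log2 -0.66, adjusted p = 0.109 by edgeR). INSIG1, which retains SCAP and is itself a target of the SREBF factors in mammals, fell by 1.31 (adjusted p = 0.0292 by edgeR), and SREBF1 (-1.82), the factor tied to fatty acid synthesis, also fell. Neither was called when scaled to hepatocyte markers, with INSIG1 at -0.53 there. MBTPS1 (-0.95), STARD4 (-0.97), NPC1 (-0.98) and NPC2 (-0.43) made up the rest of the falls. The 2 that rose were INSIG2 (0.78) and MYLIP (0.64), a ubiquitin ligase, and on FPKM they were at -0.18 and -0.27. With hepatocyte scaling this list counted 1 lower and 2 higher, beside 639 lower and 4398 higher of all 10291 genes tested.

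Of 8 tested genes of ester storage, efflux and bile acid synthesis 6 fell and 1 rose, with a median of -1.46. The shares over all genes tested in rooster liver were 21.1% lower and 20.4% higher. CYP7A1, the rate-limiting enzyme of the classic bile acid route, fell by 7.52 (log2; adjusted p = 3.62e-04 by edgeR), as did CYP8B1 (-5.86), which acts later in that route, and ABCG5 (-4.63), a sterol exporter. LCAT (-1.60), ABCA1 (-1.33) and CYP27A1 (-0.65) also fell. Under hepatocyte scaling ABCA1 (-0.57) and CYP27A1 (0.04) were not called, and the list counted 4 lower and 1 higher with a median of -0.73. Over all 10291 genes tested that scaling gave 639 lower and 4398 higher. CYP7A1, ABCG5 and ABCA1 reached the filter only through the FCON libraries and so had to come out lower. The counts and medians of this list include them. Among the other tested genes LCAT, CYP8B1 and CYP27A1 fell, and the middle value was that of CYP27A1 (-0.65). NR1H3, the liver X receptor that senses oxysterols in mammals, rose by 2.50 (adjusted p = 4.22e-05 by edgeR). SOAT1 was at -0.52 and did not pass.

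**Figure D5:**
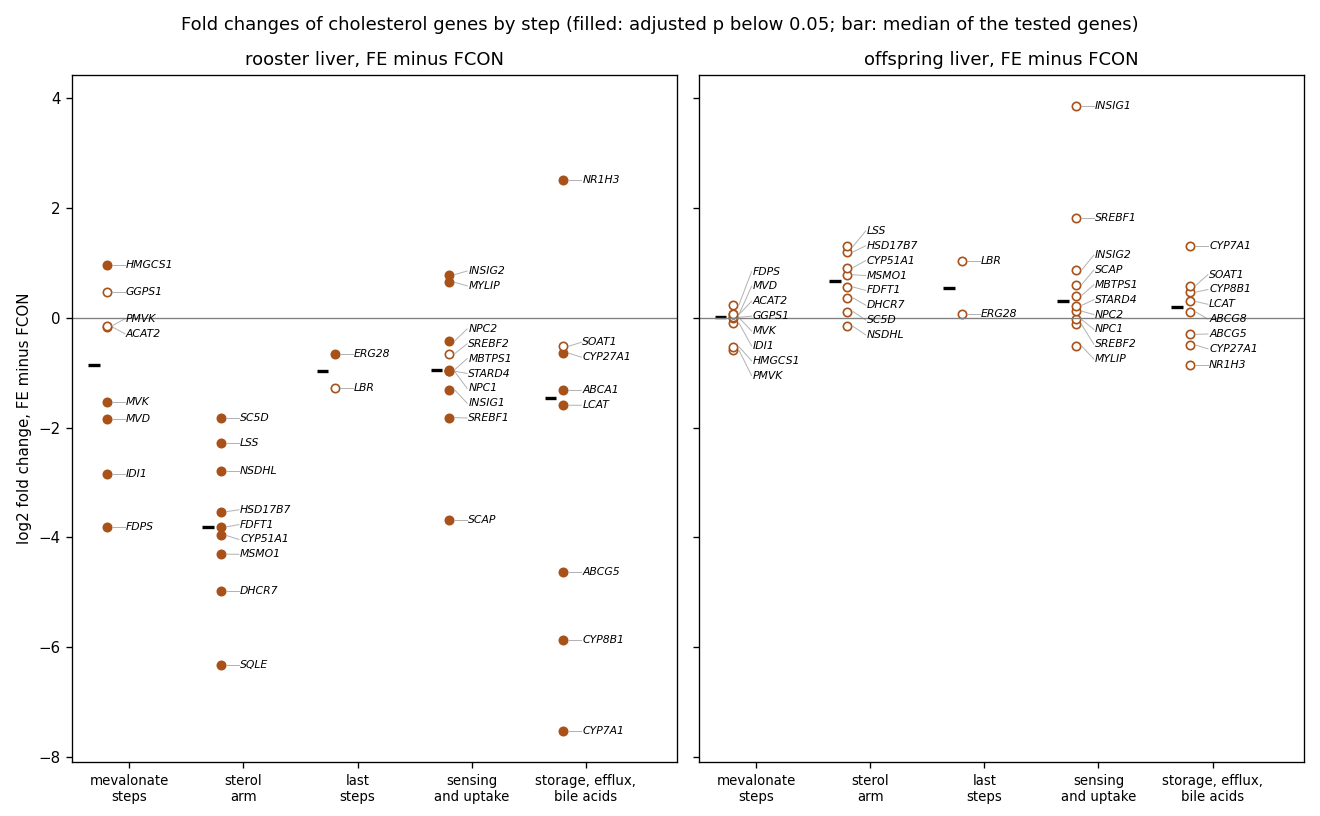
Points are log2 fold changes, FE minus FCON, of the named genes of each list of the cholesterol pathway in rooster and offspring liver; bars are list medians and filled points have an adjusted p below 0.05 by edgeR. The 9 sterol genes lie from -6.31 to -1.82 in rooster liver with a median of -3.81, the other lists have medians from -1.46 to -0.85, and no point is filled in offspring liver. The median of -1.46 includes CYP7A1, ABCG5 and ABCA1, which passed the filter only through rooster FCON. The median of -3.81 likewise includes SQLE and DHCR7, and that of the 7 other sterol genes was -3.53.

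In offspring liver none of these lists had a call by edgeR, and their medians were 0.55, 0.0022, 0.31 and 0.20 in the order given. The highest single value belonged to INSIG1, at 2.48, 5.58 and 5.46 CPM in FCON and 35.7, 134 and 26.9 CPM in FE. Its 3 FE pools lay above its 3 FCON pools, yet log2 3.85 did not pass by edgeR (adjusted p = 0.462), whereas DESeq2 (8.10e-08) and edgeR scaled to hepatocyte markers (0.00268) called it. In the difference of diet effects, 4 of 8 mevalonate genes, 0 of 2 last-step genes, 4 of 10 sensing genes and 5 of 9 storage and bile acid genes were called lower, and 0, 0, 1 and 1 higher, beside 9 of 9 of the sterol arm. Over all genes tested in that fit 10.2% were called lower and 8.44% higher, so the single rises were near the general share. In FE liver by age, where no sterol gene was called, 1 mevalonate gene rose (FDPS 2.16) and 2 fell (ACAT2 -2.24 and HMGCS1 -2.73), beside 14.7% higher and 12.8% lower over all tested genes. The sensing genes SREBF1 (2.69) and SCAP (2.11) rose and 0 fell. Of the 8 storage and bile acid genes tested there 5 rose and 1 fell, with a median of 3.48. CYP7A1, ABCG5 and ABCG8 passed the filter only through the chick pools and so had to come out higher. The count of rises and the median include them. Among the other tested genes CYP8B1 (5.70) and LCAT (2.23) rose, NR1H3 (-2.36) fell and the rest were not called.

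The genes whose pattern over the 12 liver libraries was most like the mean of the 9 were ranked by Pearson's r over 10993 genes, as a description. The 3 rooster FCON libraries stand apart and set these values. The leading 5 were IGF1 (r = 0.98), the circulating growth factor made in liver, LYG2 (0.97), MED13 (0.96), a Mediator subunit, WNT6 (0.95), a secreted ligand, and SPIA5 (0.95). IGF1 averaged 1.81 CPM in rooster FCON and 0 in the 3 other liver groups. WNT6 averaged 7.435 CPM in rooster FCON, 0.059 in offspring FCON and 0 in rooster FE and offspring FE. Genes were ranked with FPKM of 1 or more in 3 or more of the 12 libraries. IGF1 and WNT6 could not reach that without rooster FCON, so their likeness was favoured by the filter. LYG2 averaged 134 CPM in rooster FCON, 2.41 in rooster FE, 1.16 in offspring FCON and 3.15 in offspring FE. Of the pathway genes listed here, IDI1 stood highest, at rank 17 (r = 0.93).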

How the data were processed

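RNA of 18 libraries in 6 groups of 3 was compared. Per the labels' protocols, oligo-dT beads selected poly(A) RNA, which was then broken up, reverse transcribed from random hexamers and sequenced from both ends on an Illumina NovaSeq; strand marking is not stated. Per the submitters' processing notes, cutadapt, HISAT2 and StringTie were used; the sources used here give no versions and no genome build. The authors deposited 1 table of 23741 genes with FPKM, relative to each library's total, and whole-number estimated counts. Nuclear rRNA stays in these totals, which lowers all FPKM values of libraries with much rRNA.

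The deposited estimated counts were tested with edgeR 4.0.16 (quasi-likelihood, TMM scaling, R 4.3.3). Each fit used only its own groups: 6 libraries, or 12 for the difference of diet effects. Genes entered a fit with FPKM of 1 or more in 3 or more of its libraries and were called when the Benjamini-Hochberg adjusted p over all tested genes was below 0.05. Printed levels are CPM with TMM over all 18 libraries, so a ratio of printed levels differs slightly from a fitted fold. Fold changes are FE minus FCON or day-old minus adult. Intervals for single libraries and floors of 3 counts cover counting error only. Coordinates are the deposited table's, and a GRCg7b gene table gave symbols and chromosome names only (19402 gene IDs matched).

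The members, lists and named genes were chosen with earlier results of these data known. The rule names all 9 members, pathway genes that were called or that a result turned on, and the 5 genes most alike by Pearson's r of log2 CPM (prior count 2). No library pair within a group held identical counts. The rooster FCON libraries were the most alike, with a median chi-square between pairs of 6.92 to 7.27 times that of counting error. Within the other groups it was 13.4 to 95.8 times. That the rooster FCON libraries are separate birds rests on the labels alone. Same-numbered sperm libraries deviated together (correlations 0.119, 0.179 and 0.243), though offspring FCON pool 3 and FE pool 1, of unlike numbers, reached 0.231. The labels number the roosters within each diet, so a shared number does not name a shared bird. Whether it marks anything else in common is not stated. Alternatives were DESeq2 1.42.0, no filter on low values, limma 3.58.1 on log2(FPKM + 1), a replicate block, scaling to hepatocyte markers, leaving out the offspring pools numbered 2 or each library in turn and, added after the data were seen, leaving out rRNA, mitochondrial, W and Z genes. A few genes of the pathway lists are not reported here and are left out of the list counts and medians. Promoter and protein sequences were not used here. Figures were drawn with matplotlib 3.10.9.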

Additional observations from a re-analysis of the deposited data

Results flagged for a closer look

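By the interaction term of edgeR's fit over 12 libraries, all 9 genes of the sterol arm were called for a lower diet effect in rooster than in offspring liver. In that direction 10.2% of 11002 tested genes were called. SQLE passed the filter only through rooster FCON, and DHCR7 only through rooster FCON and offspring FE. With hepatocyte scaling NSDHL and SC5D were not called, and the NSDHL call also ended when certain single libraries were left out. The differences in log2, rooster minus offspring, were -4.37 for FDFT1, -7.65 for SQLE, -3.58 for LSS, -4.89 for CYP51A1 and -5.10 for MSMO1. They were -2.63 for NSDHL, -4.74 for HSD17B7, -1.94 for SC5D and -5.32 for DHCR7. All rest on the libraries labelled rooster FCON, whose W counts go against their label, and the part of those libraries' sex in these values cannot be told apart from diet.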

How the results depend on the processing

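In rooster liver the 9 sterol genes kept call and direction in 54 of 54 values under other settings and in 48 of 48 fits without a library in which they could be tested. The count of genes called there ran from 2560 to 5161 without 1 library, lowest without a rooster FCON library (2605, 2604 and 2560), and members called in rooster liver, in the difference and in FCON liver by age from 7 to 9, because without a rooster FCON library SQLE and DHCR7 miss the filter (in the difference SQLE does, and NSDHL is not called). In offspring liver the count of genes called was 38 by DESeq2, 1 with no filter, 12 with hepatocyte scaling, 1 without the pools numbered 2 and 0 to 2 without 1 library. In sperm it was 1 by limma and 0 to 182 without 1 library, the highest without FCON library 2. The difference of diet effects gave 2054 genes, but 5776 by limma, 1210 with the replicate block, 1275 with hepatocyte scaling and 1244 to 2192 without 1 library, again lowest without a rooster FCON library (1251, 1248 and 1244). The members called there were 7 with hepatocyte scaling, where NSDHL was -1.86 and SC5D -1.22, and 8 without pools numbered 2, where NSDHL was -2.68. FCON liver by age gave 3037 genes, 5179 with hepatocyte scaling and 783 to 4087 without 1 library, the lowest without a rooster FCON library (788, 810 and 783). FE liver by age gave 2700 genes, 4538 by limma, 1343 with hepatocyte scaling and 1485 to 2444 without 1 library (1705 without rooster FE 2 and 1485 without rooster FE 3), and 2 members by limma.

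Signs turned for values that were not called: offspring NSDHL (0.20 by limma), sperm FDFT1 (0.048 by DESeq2, 0.011 with no filter, 0.035 with the block and 0.039 without rRNA, mitochondrial, W and Z genes), and in FE liver by age NSDHL (0.43 by limma, 0.085 with hepatocyte scaling), SC5D (0.63 and 0.10) and LSS (-0.20 with the block). Without 1 library the log2 values ran in offspring from -0.079 to 0.89 (FDFT1), -0.52 to 0.19 (NSDHL) and -0.061 to 0.24 (SC5D). In sperm they ran from -0.18 to 0.21 (FDFT1), -0.41 to 0.21 (LSS), -0.53 to 0.44 (HSD17B7) and -0.44 to 0.062 (SC5D). In FE liver by age they ran from -0.30 to 0.62 (FDFT1), -0.88 to 0.65 (LSS), -0.058 to 0.34 (MSMO1), -0.81 to 0.43 (NSDHL), -0.44 to 0.38 (HSD17B7) and -0.56 to 0.086 (SC5D). The causes were not tested.

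With the replicate block rooster liver gave 3442 genes and no call of a sterol gene changed in any comparison. Sperm, whose same-numbered libraries deviated together, stayed at 0 genes. Numbers did not pair the liver libraries, with same-number correlations from -0.181 to 0.058 over the diet and age comparisons. Depth limits SQLE in rooster FE and offspring liver and DHCR7 in sperm, and 3 libraries a group limit the rest.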
